A study of Mus musculus with 4 samples.

Results

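Axon and vessel guidance genes were read here as the semaphorins and their plexin receptors, the ephrins and Eph receptors, the Slit proteins and Robo receptors, and the netrins and Unc5 receptors. They were chosen by gene symbol, with no measured value in the choice, and comprised 66 of the 21755 protein-coding genes of the mouse annotation. The data were ATAC-Seq libraries of nuclei from whole hearts of male NuTRAP/Cdh5-Cre mice of 8 to 12 weeks. In these mice, Cre driven by the Cdh5 promoter switches on a GFP tag of ribosomes in cells that use, or once used, that endothelial promoter. Flow cytometry gave 2 libraries of GFP+ (endothelial) and 2 libraries of GFP- (non-endothelial) nuclei, from 100 to 50000 nuclei each. Both groups carried the transgenes, and GFP- nuclei are a mixture of all remaining heart cells. The authors called accessible regions (peaks) once for each population from both replicates together, so each value below stands for 1 list, no replicate error exists and no test was made.

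Guidance proteins were first described in growing axons and steer vessels as well. Secreted and membrane-bound semaphorins signal through plexins, with neuropilins as co-receptors for most class 3 semaphorins. Ephrins and Eph receptors are both bound to membranes and signal on contact, and ephrin-B2 with EphB4 separates arteries from veins. Slits are secreted ligands of Robo receptors, and netrins bind Unc5 receptors and DCC. In adult endothelium, Robo4, Unc5b and Plxnd1 are the receptors best known from vessels.

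Accessibility at a gene was read from the largest peak within 250 bp of any of its annotated transcript starts, here called its start peak. Peak size is the area that the authors' caller gave, which grows with both the height and the length of a peak. Because the lists differ in length (78912 GFP- and 65008 GFP+ peaks), each peak was given a rank from 0 to 100 within its own list, with 0 for no peak. A difference of at least 20 points was taken as a change in rank and is a rule of size, not of significance. Peaks whose summit lay farther than 1000 bp from every start and outside exons were called distal and assigned to the protein-coding gene with the nearest start.

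A few stretches show the DNA on which the comparisons turned. They are given 5′ to 3′ on the strand of the gene, in GRCm38 coordinates, and lie outside annotated exons. The promoter of Robo4 is shown because its start peak gained most in GFP+ nuclei, as the 200 bases that end at the first transcript start. The summit of its GFP+ start peak lies outside these bases. The others are the 200 bases around the summit of the 4 highest-ranked distal peaks found only in GFP+ nuclei and 3 of the 4 highest-ranked found only in GFP- nuclei, apart from those of Sema6a. Capitals mark short words bound by transcription factor families, searched on both strands: AGGAAGT for ETS, CCATTGT for SOX, AACAGCTG for TCF21, TGACTCA for AP-1, CTAAAAATA for MEF2, AGATAAG for GATA and GGAATG for TEAD factors.
Robo4 promoter (chr9:37401697-37401896, + strand): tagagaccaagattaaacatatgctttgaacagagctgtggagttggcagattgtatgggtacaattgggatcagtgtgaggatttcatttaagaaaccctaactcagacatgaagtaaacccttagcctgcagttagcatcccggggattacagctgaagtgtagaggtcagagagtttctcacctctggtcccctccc
Sema7a, GFP+ only (chr9:57964954-57965153, + strand): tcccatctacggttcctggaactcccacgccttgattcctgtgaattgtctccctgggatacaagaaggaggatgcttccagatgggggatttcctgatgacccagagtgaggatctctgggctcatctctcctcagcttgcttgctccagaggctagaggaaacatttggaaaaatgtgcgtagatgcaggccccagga
Efnb2, GFP+ only (chr8:8623666-8623865, - strand): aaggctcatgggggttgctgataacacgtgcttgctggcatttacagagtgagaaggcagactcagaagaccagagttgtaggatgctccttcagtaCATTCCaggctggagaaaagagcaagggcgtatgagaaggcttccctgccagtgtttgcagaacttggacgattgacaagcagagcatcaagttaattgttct
Sema6d, GFP+ only (chr2:124848941-124849140, + strand): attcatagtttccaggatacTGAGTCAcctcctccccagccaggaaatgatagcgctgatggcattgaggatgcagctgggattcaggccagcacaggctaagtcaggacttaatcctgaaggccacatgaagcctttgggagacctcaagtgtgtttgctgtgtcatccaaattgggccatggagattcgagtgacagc
Plxnd1, GFP+ only (chr6:116009498-116009697, - strand): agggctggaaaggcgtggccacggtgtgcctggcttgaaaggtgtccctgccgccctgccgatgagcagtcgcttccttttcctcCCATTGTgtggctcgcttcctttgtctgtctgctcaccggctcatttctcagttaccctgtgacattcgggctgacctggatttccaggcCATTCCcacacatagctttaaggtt
Plxna2 upstream of its nearest start, GFP- only (chr1:194756549-194756748, + strand): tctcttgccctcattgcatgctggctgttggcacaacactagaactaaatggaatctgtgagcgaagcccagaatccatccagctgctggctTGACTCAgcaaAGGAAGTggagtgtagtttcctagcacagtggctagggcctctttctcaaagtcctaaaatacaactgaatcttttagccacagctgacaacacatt
Plxna2 downstream of its nearest start, GFP- only (chr1:194808389-194808588, + strand): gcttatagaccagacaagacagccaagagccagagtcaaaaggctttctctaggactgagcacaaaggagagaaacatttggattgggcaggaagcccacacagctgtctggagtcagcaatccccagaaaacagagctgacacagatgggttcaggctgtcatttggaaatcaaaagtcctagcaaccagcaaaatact
Sema6d, GFP- only (chr2:124772151-124772350, + strand): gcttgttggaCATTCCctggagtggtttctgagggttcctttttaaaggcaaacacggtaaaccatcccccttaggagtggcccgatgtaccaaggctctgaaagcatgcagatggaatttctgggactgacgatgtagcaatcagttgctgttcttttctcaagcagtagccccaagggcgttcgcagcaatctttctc

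The stretch of Robo4 held 1 CpG and none of the 7 words. Among the peaks found only in GFP+ nuclei, that of Plxnd1 held a SOX and a TEAD word, that of Efnb2 a TEAD word and that of Sema6d an AP-1 word. Among those found only in GFP- nuclei, a peak of Plxna2 held an AP-1 and an ETS word, and that of Sema6d a TEAD word. A word is a match of letters and shows no binding.

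Most guidance genes had an accessible start in both populations. Of 66 genes, 58 (87.9%) had a start peak in at least 1 list, against 62.7% of all protein-coding genes. All 58 had one in GFP- nuclei and 56 in GFP+ nuclei. Sema4a and Sema4g had one only in the GFP- list, where 4.71% of all genes with a start peak are of this kind, and 0 had one only in the GFP+ list, against 1.46%. The genes without a start peak were the Eph receptors Epha6, Epha8 and Epha10, the ligands Sema3e, Sema4f, Ntn5 and Slit1, and Robo3. No start peak of a guidance gene also covered the start of another coding gene, which 19.7% of start peaks do among all genes.

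Of the 58 genes, 2 ranked at least 20 points higher in GFP+ nuclei, beside 1.94% of all 13643 genes with a start peak, and 12 ranked at least 20 points lower, which is 20.7% beside 7.33% of all genes. A further 27 lay within 5 points (46.6%, beside 75.6% of all genes). The median difference was -1.66 points for guidance genes and -0.814 points for all genes. Most of the lower ranks were those of genes of intermediate rank: with a mean rank from 40 to 90, 10 of 27 guidance genes (37.0%) ranked lower by 20 points, against 7.51% of all genes of that range. With a mean rank below 40, 2 of 7 guidance genes (28.6%) ranked lower by 20 points, against 43.5% of all genes. Above a mean rank of 90, 0 of 24 guidance genes passed 20 points in either direction, and 0 of all 6465 genes of that range did.

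**Figure D1:**
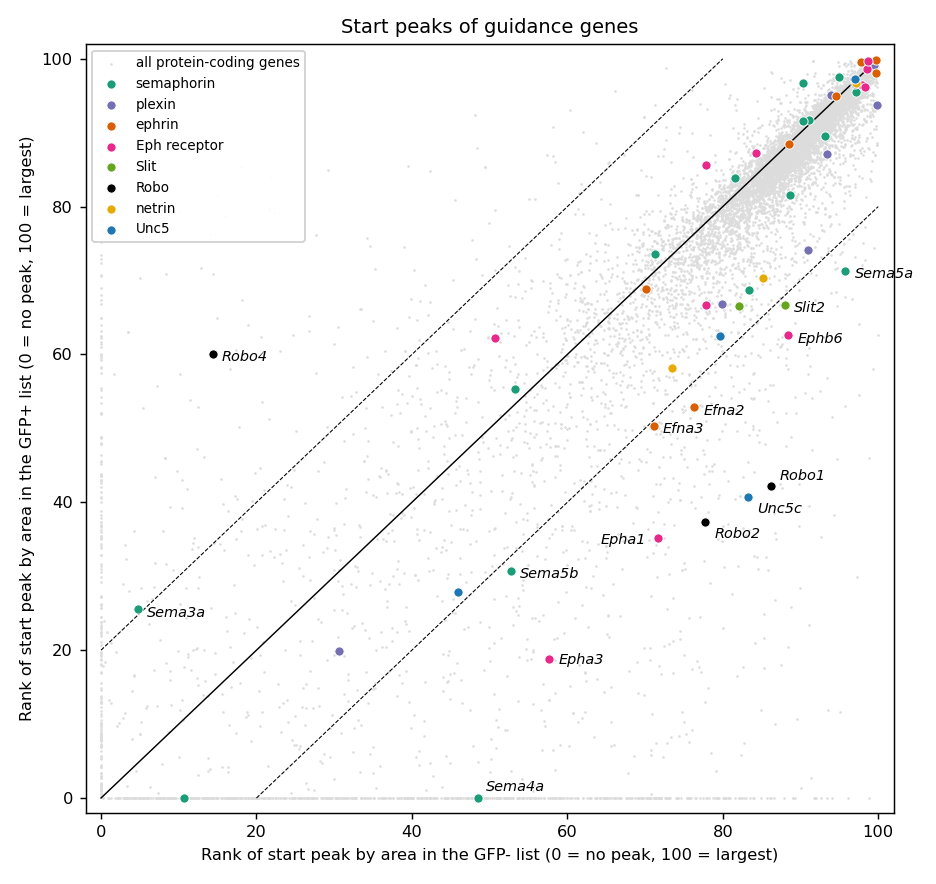
Rank of the start peak in the GFP- list (x axis, 0 to 100) against that in the GFP+ list (y axis, 0 to 100), with all protein-coding genes in grey and guidance genes coloured by family. Dashed lines mark differences of 20 points, and the 14 named genes beyond them are 2 above the diagonal (Robo4, Sema3a) and 12 below.

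Among receptors, Robo4, the Robo of endothelium, ranked 14.3 in GFP- and 60.05 in GFP+ nuclei, a difference of 45.7 points. Its start peak (chr9:37401581-37402459 in GFP+ nuclei) was 286 bp long in GFP- and 879 bp in GFP+ nuclei, and the ratio of observed to expected CpGs around it was 0.208, against a median of 0.728 over the guidance genes. Robo1 and Robo2, best known from the nervous system, moved the other way. Robo1 ranked 86.2 in GFP- and 42.2 in GFP+ nuclei, with its GFP- peak at chr16:72662798-72663923. These are ranks at inner starts of Robo1, and its outermost start had no peak in either list. Robo2 ranked 77.8 (chr16:74411151-74412112) and 37.4 (chr16:74027822-74028164), which are different starts of the gene. At the outer starts of Robo2, where the GFP- peak of rank 77.8 lies, the GFP+ list held a peak of rank 28.2 at most, and at the inner start the GFP- list held one of rank 7.75. The Robo family thus divided into 1 gene that was higher and 2 that were lower in GFP+ nuclei, and Robo2 was lower at its outer starts and higher at its inner start.

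The remaining receptors that fell by 20 points or more were Unc5c, a netrin receptor (83.3 in GFP-, 40.7 in GFP+, with the GFP- peak at chr3:141464596-141465877), Epha3 (57.7 and 18.9), Epha1 (71.7 and 35.1) and Ephb6, an Eph receptor that lacks kinase activity (88.4 and 62.6). Of the receptors known from vessels, Ephb4, Unc5b and Plxnd1 ranked above 96 in both lists. In that range no gene can pass 20 points, so that the rank leaves little room for a difference. Ephb4, the venous receptor of ephrin-B2, ranked 98.7 in GFP- and 99.7 in GFP+ nuclei, with a start peak of 3272 bp and 4931 bp, the longer of which spanned 2 GFP- peaks that covered 3572 bp of it. Unc5b ranked 97.0 and 97.3, and Plxnd1, the receptor of Sema3e, ranked 99.4 and 99.2. At the outermost start of Plxnd1 alone the ranks were 98.3 and 99.2, and at its start at position 115956364 of chromosome 6 they were 99.4 and 96.5. By area, none of the 9 plexins passed 20 points, and the widest difference among them was that of Plxnc1 at -16.8 points, which was past 20 points by summit p and by area per bp. Plxnb1 was also past 20 points when both lists were compared at the same start. At Plxnb2 the GFP- start peak of 4996 bp (rank 99.9) spanned 2 GFP+ peaks, of which the one at the start ranked 93.7 and the other 98.4, and together they covered 4222 bp of it.

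Among ligands, 6 ranked at least 20 points lower and 1 higher in GFP+ nuclei. Sema3a, a secreted repellent that binds neuropilin 1, had small start peaks in both lists and ranked 4.70 in GFP- and 25.5 in GFP+ nuclei. Sema4a ranked 48.6 in GFP- nuclei and had no start peak in GFP+ nuclei. That rank was at an inner start (position 88450038 of chromosome 3), and the outermost start of Sema4a had no peak in either list. The thrombospondin-repeat semaphorins Sema5a (95.8 in GFP-, 71.3 in GFP+) and Sema5b (52.8 and 30.7) were both lower. So were Slit2 (87.9 and 66.7) and the ephrins Efna2 (76.3 and 52.8) and Efna3 (71.1 and 50.3). Slit3 ranked 82.1 and 66.6, and its difference was -15.5 points by area, -28.5 points by summit p and -22.1 points by area per bp. Sema4g, which ranked 10.7 in GFP- nuclei alone, was too low to pass 20 points.

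Apart from Slit2 and Sema3a, the ligands chosen as known from vessels lay within 20 points by area. Efna1, Efna3 and Efna4 are neighbours on chromosome 3, with starts at 89279641, 89322965 and 89338028. Efna1 ranked 99.7 in GFP- and 99.9 in GFP+ nuclei under peaks of 5212 bp and 5229 bp, while Efna4 ranked 70.1 and 68.8. Efnb2, the arterial ephrin, ranked 97.7 and 99.5 under peaks of 2746 bp and 3676 bp. Sema3g, which marks arterial endothelium, ranked 53.3 and 55.3 by area, but differed by -31.8 points by area per bp. Sema4d ranked 91.1 and 91.7, Sema3c 88.7 and 81.6, Ntn1 97.1 and 96.7, and Ntn4, a laminin-like netrin of basement membranes, 85.2 and 70.3, a difference that was -20.03 points by summit p. The 6 class 3 semaphorins with a start peak had a median difference of 2.13 points and the other 12 semaphorins one of -1.12 points.

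**Figure D2:**
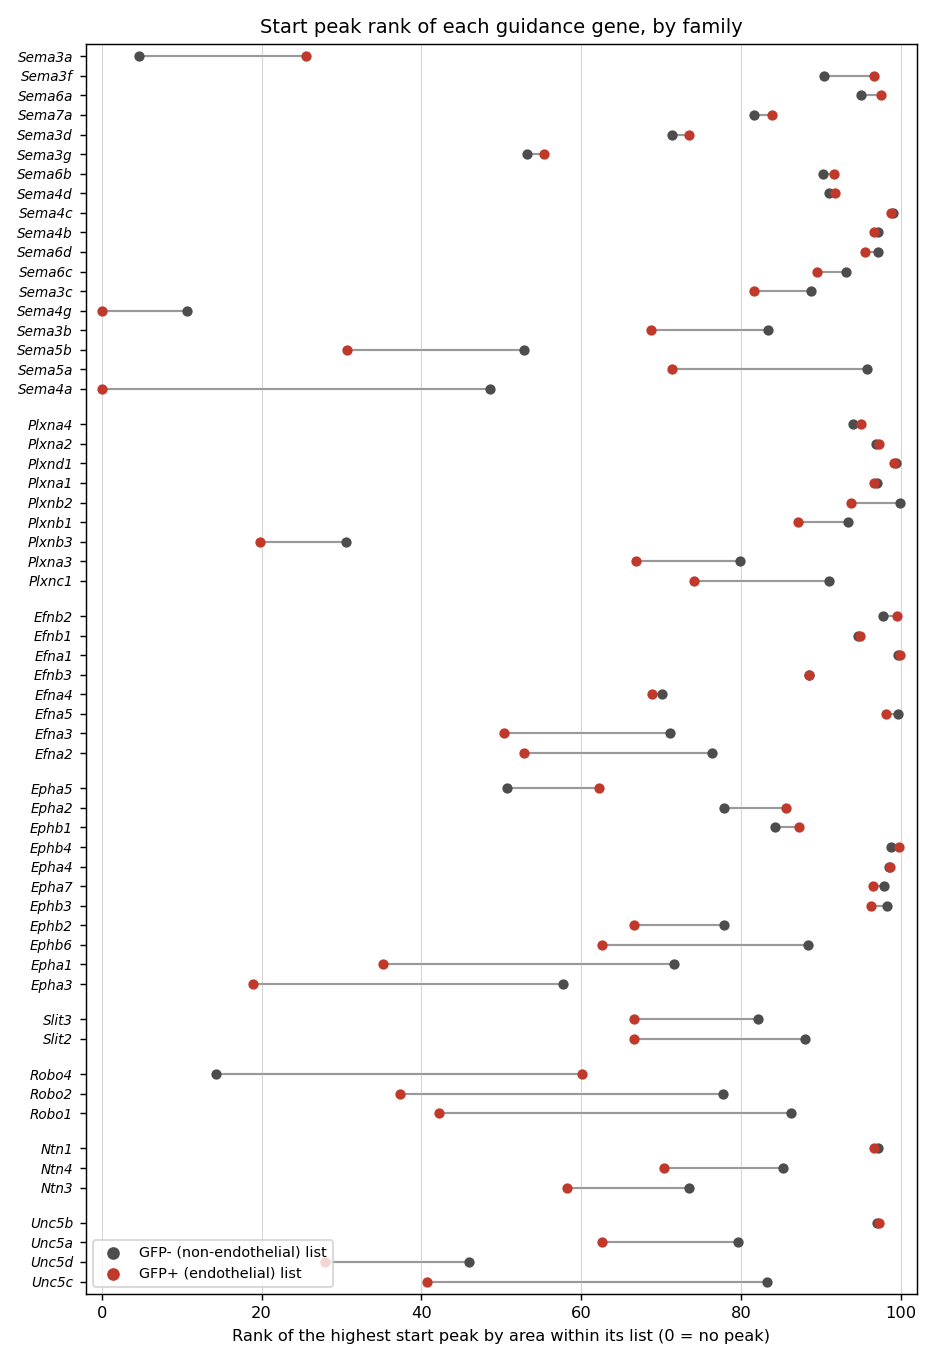
Start peak rank (x axis, 0 to 100 within each list) of the 58 guidance genes with a start peak (y axis, by family), with GFP- in grey and GFP+ in red. Long lines to the left of a grey point (Sema4a, Robo1, Unc5c, Robo2, Epha3, Epha1) are ranks that were lower in GFP+ nuclei, and Robo4 has the longest line to the right.

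Because area joins height and length, the 14 genes past 20 points were ranked again by the -log10 p of the peak's summit and by area per bp. Of the 12 lower genes, 5 were at least 20 points lower by all 3 measures, namely Sema4a, Robo1, Unc5c, Robo2 and Epha3. Robo1 differed by -72.7 points by summit p and -74.4 points by area per bp, and Unc5c by -62.6 and -59.7 points. Ephb6 and Sema5a remained lower in both other measures but not by 20 points in each. For the other 5, another measure turned the sign: Epha1 was 11.9 points higher by summit p and 27.8 points higher by area per bp, Efna3 19.96 points and Slit2 9.96 points higher by area per bp, Sema5b 3.74 points higher by summit p, and Efna2 0.614 points higher by area per bp. These 5 had shorter peaks in GFP+ nuclei, such as 353 bp against 1988 bp for Epha1. So did the lower genes that kept their sign and had a peak in both lists. Examples are Robo1 (871 bp against 1126 bp) and Sema5a (845 bp against 3088 bp). Robo4 was 48.2 points higher by summit p but 3.47 points higher by area per bp, and Sema3a differed by -2.61 points by summit p and was 9.18 points higher by area per bp. By summit p, 11 guidance genes ranked at least 20 points lower, beside 7.43% of all genes, and 1 higher, beside 1.92%. By area per bp, 10 ranked lower, beside 9.71% of all genes, and 3 higher, beside 3.2%, and Robo4 was not among these.

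**Figure D3:**
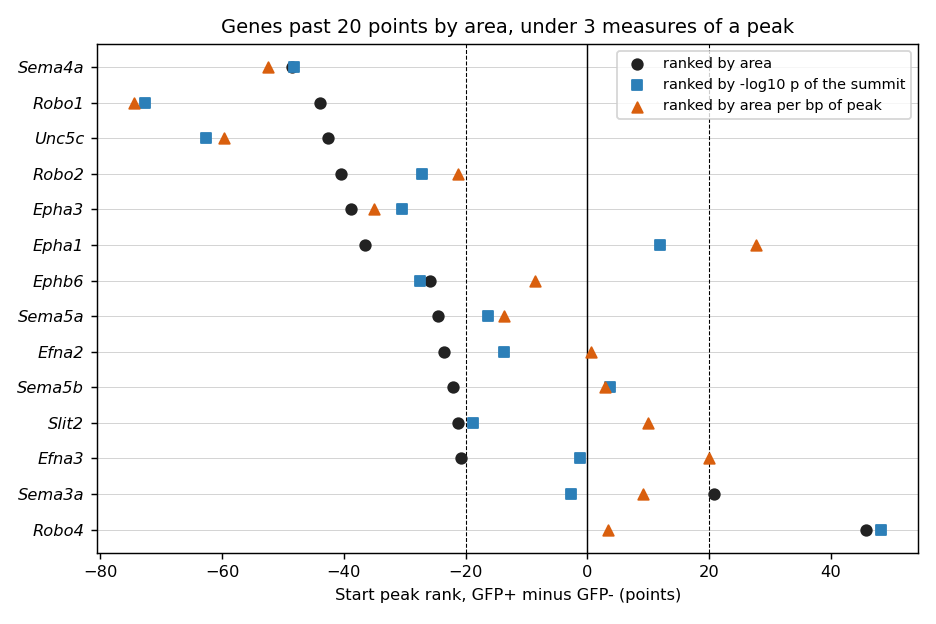
Difference in start peak rank, GFP+ minus GFP- (x axis, points), for the 14 genes past 20 points by area (y axis), ranked by area (circles), by the -log10 p of the summit (squares) and by area per bp (triangles). Dashed lines mark 20 points. All 3 symbols lie beyond -20 for 5 genes, and the symbols of Epha1 lie on both sides of 0.

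Start peaks of guidance genes had medians of 1636 bp in GFP- and 1153 bp in GFP+ nuclei over the 56 genes with both. The median ratio of GFP+ to GFP- length was 0.829, against 0.945 over 12802 genes, while 33 of the 56 genes (58.9%) had the longer peak in GFP- nuclei, against 65.0% of all genes. At 12 of the 56 genes, the start peak of one list spanned more than 1 peak of the other, so that a shorter peak can be a piece of a divided one. Of the genes past 20 points by area these were Ephb6, Efna3 and Sema5a, whose highest GFP+ piece is the one given above. Peak length moved with the rank by area, and its part in the result was not tested beyond the measures above. Fewer nuclei with an open site and less opening in each nucleus cannot be told apart in these pooled lists.

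Markers of the cell types in the heart were read in the same way. Of 8 endothelial markers, 6 ranked at least 20 points higher in GFP+ nuclei (among them Cdh5, from 18.0 to 85.3) and Tek, an angiopoietin receptor, differed by -27.0 points. Cardiomyocyte markers were high in both lists, with 0 of 6 past 20 points and ranks of 86.0 and above in GFP+ nuclei. Of 6 fibroblast markers, 3 fell by 20 points, and Tcf21 and Dpt were at 0 in GFP+ nuclei. Of 6 pericyte and smooth muscle markers, 3 fell by 20 points, among them Pdgfrb and Acta2, which were at 0 in GFP+ nuclei. Rgs5 was also at 0 there, but its GFP- rank of 16.2 was too low to pass 20 points. Ptprc, Csf1r and Adgre1 of macrophages and Sox10 and S100b of Schwann cells had no start peak in either list. The part of fibroblasts and pericytes in the lower ranks of the guidance genes was not tested.

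Of 40 further genes of these pathways (co-receptors, other ligands and intracellular effectors), 34 had a start peak, 0 ranked at least 20 points higher and 3 (8.82%, beside 7.33% of all genes) ranked lower, a share close to that of all genes. The 3 were Ptk7, a Wnt and plexin co-receptor without kinase activity (88.2 in GFP-, 52.1 in GFP+), Mical1, an actin-oxidising enzyme downstream of plexins (95.4 and 73.8), and Ngef, an exchange factor downstream of EphA receptors (20.1 and 0). The widest differences upward were those of Rnd1 (6.14 points), Flrt2 (5.84 points) and Flrt3 (5.05 points). The semaphorin co-receptors Nrp1 (99.8 and 99.7) and Nrp2 (88.6 and 89.2) differed by less than 1 point. Dcc, the attractive netrin receptor, had no start peak in either list.

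Distal peaks were counted next. The guidance genes were nearest to 529 distal GFP- peaks and 420 distal GFP+ peaks. Of the GFP- peaks, 204 (38.6%) had no overlap with a GFP+ peak, beside 36% of all distal GFP- peaks, and 61.4% were shared (Wilson 95% interval 57.2 to 65.5, counting error only). Of the GFP+ peaks, 92 (21.9%) had no overlap with a GFP- peak, beside 16.4% of all distal GFP+ peaks, and 78.1% were shared (73.9 to 81.8). Merged over both lists, these were 617 regions, of which 83 (13.5%) ranked at least 20 points higher in GFP+ nuclei, beside 8.72% of all distal regions, and 178 (28.8%) ranked lower, beside 27.3%. The median difference was -5.22 points, and -5.83 points over all regions. The summits of the distal GFP- peaks lay at a median of 53.9 kb from the nearest start of the gene, against 20.2 kb for all genes. Many lay inside the gene itself, and within the gene body stood 57.6% of the peaks found only in GFP+ nuclei (53) and 55.4% of those found only in GFP- nuclei (113). A peak may act on a gene other than the nearest.

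The counts of distal peaks are given by family, with no test between families. For the Slit genes, 28 of 52 GFP- peaks were found only in GFP- nuclei (53.8%, beside 36% of all) and 1 of 25 GFP+ peaks only in GFP+ nuclei (4%, beside 16.4%), and 0 of 53 regions ranked 20 points higher in GFP+ nuclei, beside 8.72% of all. For the Unc5 genes, 0 of 21 GFP+ peaks were found only there (an interval of 84.5 to 100% shared). For the class 3 semaphorins, 13 of 25 GFP+ peaks were found only in GFP+ nuclei (52%, beside 16.4% of all, with 48.0% shared, interval 30.03 to 66.5), and the median difference over their 32 regions was 6.56 points. Sema3f held 13 of these regions, with a median of 11.5 points. The medians of the others were 13.2 for Sema3a (6 regions), 2.54 for Sema3d (8), -27.1 for Sema3c (4) and 39.7 for Sema3e (1). At the plexins, 12 of 77 GFP+ peaks were found only there, a share of 15.6% that is close to the 16.4% of all distal GFP+ peaks.

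**Figure D4:**
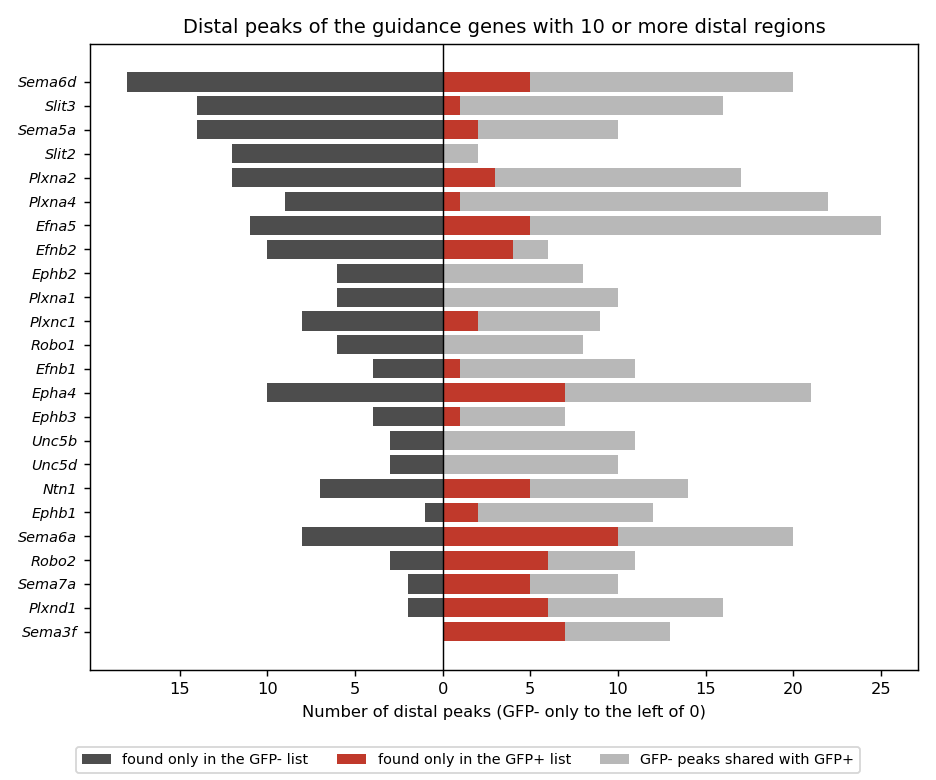
Number of distal peaks (x axis) of each guidance gene with 10 or more distal regions (y axis), with peaks found only in GFP- nuclei to the left of 0 (dark grey), and those found only in GFP+ nuclei (red) and the shared GFP- peaks (light grey) stacked to the right. Sema6d has the most GFP- only peaks (18), Sema6a the most GFP+ only peaks (10), and Sema3f has 0 of the former.

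The genes with the most distal peaks found only in GFP+ nuclei (16.4% over all genes) were Sema6a (10 of 20), Sema3f (7 of 13), Epha4 (7 of 21), Plxnd1 (6 of 17) and Robo2 (6 of 11). With both lists cut at their median area, the counts were 9 for Sema6a, 3 each for Sema3f, Epha4 and Plxnd1, and 0 for Robo2. A peak whose partner fell below the cut then counts as found in only 1 list. The 3 of Epha4 are all of this kind, since its highest peak without any partner ranked 47.1. With the nearest start of any annotated gene the counts were 6 for Sema6a, 2 for Epha4 and 2 for Robo2. With an overlap of 50% of both peaks, Plxnd1 had 14. Sema3f, a semaphorin that binds neuropilin 2, had 0 of 6 GFP- peaks without a GFP+ partner, and its start peak lengthened from 1159 bp in GFP- to 2661 bp in GFP+ nuclei at ranks of 90.3 and 96.7. Its 5 highest GFP+ only peaks stood in a row inside the gene, at -2.82 to -6.14 kb from the nearest start (negative values are upstream), with ranks up to 61.3. Plxnd1, whose start peak differed by -0.249 points, had 7 of 17 regions at least 20 points higher in GFP+ nuclei, beside 8.72% of all regions. Its median region difference was 13.7 points. A GFP+ only peak counts as rank 0 in GFP- nuclei, so choosing genes by such peaks raises these region values. The peak printed above for Plxnd1 ranked 66.8 and lay at -14.6 kb from its nearest start. Sema6a, a membrane semaphorin that binds A-type plexins, had both 10 GFP+ only and 8 GFP- only peaks. Of its 28 regions, 13 ranked at least 20 points higher and 8 lower, beside 8.72% and 27.3% of all regions. The highest-ranked distal peak found only in GFP+ nuclei was that of Sema7a, the glycolipid-anchored semaphorin, at rank 76.8 and 24.9 kb downstream of a start. Robo4, with the largest gain at its start, had 0 of 3.

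The genes with the most distal peaks found only in GFP- nuclei (36% over all genes) were Sema6d (18 of 33), Sema5a (14 of 22), Slit3 (14 of 29), Slit2 (12 of 14) and Plxna2 (12 of 26). These counts depend on the settings. With peaks assigned to the nearest start of any annotated gene, they were 7 for Sema6d, 5 for Slit3, 5 for Plxna2 and 1 for Slit2. With both lists cut at the median area, they were 10 for Sema6d, 8 for Slit3, 5 for Slit2, 3 for Plxna2 and 2 for Sema5a. The latter can include peaks whose GFP+ partner fell below the cut. For Slit2, 8 of 14 regions ranked at least 20 points lower in GFP+ nuclei, beside 27.3% of all regions, with a median of -27.5 points. The highest-ranked of its GFP- only peaks (77.4) lay at -586 kb from the nearest Slit2 start, and its assignment to Slit2 rests on the lack of a nearer coding start. Slit3 had a median of -15.1 points over 30 regions and Sema5a one of -19.9 points over 25 regions, beside -5.83 points over all regions. A GFP- only peak counts as rank 0 in GFP+ nuclei, so choosing genes by such peaks lowers these medians. They give no separate evidence on the start ranks. Of the same list of genes, Sema6d and Plxna2 differed at their starts by -1.74 and 0.385 points. Efnb2 had 10 of 12 GFP- peaks found only in GFP- and 4 of 6 GFP+ peaks found only in GFP+ nuclei, so that few of its distal peaks were shared while its start ranked above 97 in both lists.

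**Figure D5:**
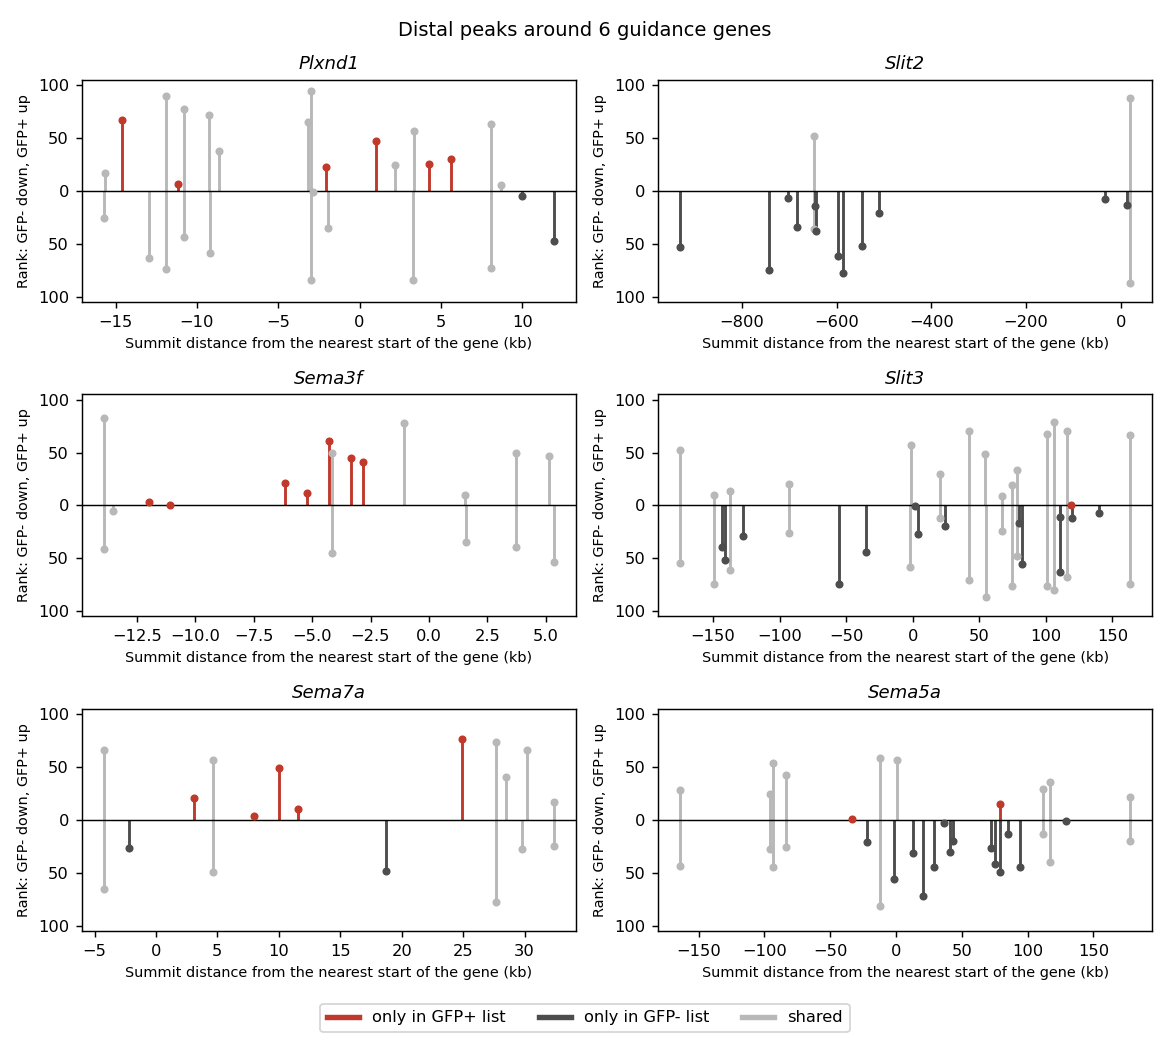
Rank of each distal peak (y axis, GFP+ upward and GFP- downward, 0 to 100) against the distance of its summit from the nearest start of the gene (x axis, kb, positive downstream) for Plxnd1, Sema3f, Sema7a, Slit2, Slit3 and Sema5a. Red and dark grey are peaks found in only 1 list and light grey those shared, and the genes on the left carry most of the red and those on the right most of the dark grey.

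The 7 words were counted in the 200 bases around the summits of the distal peaks. The ETS word stood in 13.0% of the 92 GFP+ only peaks (12 peaks, interval 7.62 to 21.4), against 14.0% of all distal GFP+ only peaks, and in 7.84% of the 204 GFP- only peaks, against 8.10% of all. The SOX word stood in 9.78% of GFP+ only peaks (interval 5.23 to 17.6), against 6.23% of all distal GFP+ only peaks, at Efnb1, Plxnd1, Robo2, Sema3a, Sema6a and Sema6b, and in 1.96% of GFP- only peaks (0.765 to 4.93), against 2.09% of all. The TCF21 word stood in 7.84% of GFP- only peaks (4.89 to 12.4), against 5.87% of all, among them peaks of Slit2, Slit3 and Sema6d, and in 3.26% of GFP+ only peaks (1.12 to 9.15), against 2.003% of all. The TEAD word stood in 23.0% of GFP- only peaks (17.8 to 29.3), against 16.1% of all distal GFP- only peaks. Among the 7 words, the intervals of GFP+ only and GFP- only peaks did not overlap for SOX and overlapped for the others, and the contrast for SOX was also that of all distal peaks. This is no test, since the intervals cover counting error only and peaks of the same gene were counted as separate. At the start peaks, the ETS word stood at 2 of 58 guidance genes (Plxnb3 and Sema6b), or 3.45%, against 5.44% of all genes with a start peak.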

How the data were processed

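ATAC-Seq libraries of GFP- and GFP+ heart nuclei (2 each) were mapped to groups from their labels. The authors cleaned the reads with fastp and aligned them to mm10 with bowtie2 (version 2.3.5.1 in the submitters' processing notes). Reads of low mapping quality were dropped with samtools and duplicates with Picard. After libraries had been brought to an equal read number, Genrich was run in its ATAC mode on both replicates of a population at once, without chrM, chrY and blacklisted regions. The area of each peak in the deposited lists is a signal summed over its length. The deposited -log10 p belongs to the summit. The deposited score, limited to 1000, was not used for ranking. The lists hold no counts, so the equal read number is the study's statement and could not be checked here. Equal read numbers do not make the lists equally long, since libraries can differ in the share of reads within peaks.

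Ranks were percentiles by area within each list. Genes, transcripts and exons came from GENCODE M21, sequence from GRCm38.p6, and exons for masking also from RefSeq. An overlap of 1 bp made a peak shared. Python 3.11.15, numpy 2.4.6, pandas 2.3.3, scipy 1.17.1, pysam 0.24.0 and matplotlib 3.10.9 were used. Full values are given for genes past 20 points or in 1 list only, the 5 genes with the most peaks found in only 1 list on either side, 14 vessel guidance genes of textbooks, and the 3 furthest of the 40 partners on either side. Members, lists and settings were chosen with earlier results of these data known. The scripts were tested on simulated data. No table of read counts was used, and columns of other samples numbered 0. A marker and a sequence are not reported here.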

Additional observations from a re-analysis of the deposited data

How the results depend on the processing

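No paired analysis was possible because each list pools both replicates, and for the same reason no replicate could be left out. The number of guidance genes ranked at least 20 points lower in GFP+ nuclei was between 10 and 14 under the other settings. These were other windows, other definitions of a start, other measures of a peak and a threshold at the median area of each list. That threshold removed smaller peaks from both lists, so a gene or peak counts as found in 1 list where its partner was removed. The all-gene share was 7.71% at the outermost start, 7.43% by summit p and 9.71% by area per bp. With 10 points required the number was 23, beside 1651 of all genes. The genes behind the count changed with the measure. Of the 12 genes, 6 stayed at least 20 points lower by summit p and 5 by area per bp, while Slit3, Plxnc1 and Unc5a were among those that joined. The number ranked higher was 1 by summit p, beside 1.92% of all genes, and 1 above the median area, beside 210 of all genes. With a gene's outermost start only, Robo1, Sema4a and Sema3a had no start peak in either list. At that start Sema3b ranked lower (83.4 in GFP-, 43.6 in GFP+) and Sema6b higher (24.6 and 65.7) by more than 20 points. Start peaks found only in the GFP- list numbered 6 with both lists cut at the median area and 1 with a gene's outermost start only. Those found only in the GFP+ list numbered 1 in both. The 6 were Epha1, Epha3, Robo1, Robo2, Unc5c and Sema5b, all of which had a GFP+ start peak below the cut. Among all genes the GFP- list counts were 672 and 675, and the GFP+ list counts 188 and 217. Of 150 start peak differences of 26 named genes under an alternative, 19, at 12 genes, had the other sign. For genes past 20 points these were Efna2 (0.614 by area per bp), Efna3 (19.96 by area per bp), Epha1 (11.9 by summit p, 27.8 by area per bp), Sema3a (-2.61 by summit p), Sema5b (3.74 by summit p, 2.94 by area per bp) and Slit2 (9.96 by area per bp). The other 11 were at Ephb4, Ntn1, Plxnd1, Sema3g, Sema4d and Unc5b, whose differences by area were small, and reached -31.8 for Sema3g by area per bp.

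Distal GFP- only peaks numbered 89 with both lists cut at the median area and 88 when assigned to the nearest start of any annotated gene. GFP+ only peaks numbered 49 and 50. Over all genes the GFP- only peaks were 9050 and 20163, and the GFP+ only peaks 3066 and 7190. With an overlap of 50% of both peaks required, GFP+ only peaks numbered 150 and shared peaks were 51.4% of GFP- and 64.3% of GFP+ peaks. Over all distal peaks the shared parts were then 55.0% and 70.3%. With both lists cut at the median area, 71.7% of the remaining GFP+ peaks were shared with a remaining GFP- peak, beside 82.6% over all genes. The median region difference was -2.78 points for the nearest start of any gene, beside -5.83 points over all regions. The fall in counts under that setting follows from the larger number of starts. The comparison at 1 start in both lists was chosen after seeing the data and gave 14 lower genes, beside 8.11% of all genes. The lists carry no replicate spread, and depth per library limits which low peaks could be found.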
